A study of Homo sapiens with 20 samples.

Results

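Nuclear RNA of 7 human genes was followed in HCT116 cells: PHLDA3, TP53INP1, AEN, TP53I3, ZMAT3, TRIAP1 and PERP. They were taken by name, as p53 effectors of apoptosis and survival outside the BCL2 and death receptor families, from 26485 gene rows, and all 7 passed the filter that left 15958 genes for testing. HCT116 is a colorectal carcinoma cell line with wild-type p53. Cells were electroporated with 10 µM of a bivalent peptide (named Peg6 in the titles) designed to keep p53 from the coactivator complex Mediator, or with water, and were then kept for 3 hours in 0.1% DMSO with 10 µM Nutlin-3a or in 0.1% DMSO alone. Nutlin-3a is a small molecule that releases p53 from its ubiquitin ligase MDM2. The 4 conditions are called Nutlin plus peptide, Nutlin plus water, DMSO plus peptide and DMSO plus water. Medium of the peptide wells also held 200 nM peptide, and all cells, controls included, went through electroporation. Experiment 1 had 2 replicates of every condition and experiment 2 had 3, for 20 libraries in all. The labels do not say that replicates were separate cultures, so p-values measure the spread between these samples only, and all cells are of 1 line.

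p53 is a transcription factor that binds DNA as a tetramer, through a response element built from paired decamers, and recruits Mediator to start transcription by RNA polymerase II. Its best known targets halt the cell cycle or start apoptosis, and the 7 genes described here act around that choice. PHLDA3 is a small pleckstrin-homology protein that competes with AKT for membrane lipids, AEN is a nuclease of the nucleus and nucleolus, and TP53I3 (also PIG3) is a quinone oxidoreductase linked to reactive oxygen. TP53INP1 is a stress protein that works with the kinase HIPK2 on p53 and takes part in autophagy, ZMAT3 (also Wig-1) is a zinc-finger RNA-binding protein, and PERP is a tetraspan membrane protein also found in desmosomes. TRIAP1 stands on the survival side, as a mitochondrial partner of the lipid carrier PRELID1.

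The start regions of the genes are shown for AEN and TRIAP1, the members whose RefSeq window held one of the p53-type motifs searched. Windows of 300 bases, 250 before and 50 after a gene's listed start on GRCh38.p14, were on hand for 5 of the 7 members. The first motif was the p53 half-site decamer, which AEN carries in capitals at chr15:88621306-88621315. That is 34 bases before the start RefSeq lists for AEN in this table, 88621340, and 10 bases inside the gene row whose reads are reported below, which begins further upstream, in a stretch that GENCODE annotates as AEN exon and untranslated region. The second was a pair of CATG half-site cores with any 6 bases between them, the spacing they have in a full response element without a spacer, which TRIAP1 carries in capitals at chr12:120446340-120446353, in its coding exon, 31 bases after its listed start and 19 bases inside its gene row. Both strands were searched, and the motifs can overlap each other.
AEN, chr15:88621296-88621325, plus strand: agtcggagccGGGCTTGCCCgggcatgtgg
TRIAP1, chr12:120446335-120446364, minus strand: tgtgggggaggCATGCACGGACATGaagcg
The decamer was found in 2329 of 35116 windows of this length, or 6.63%, and the pair of cores in 131, or 0.373%. Neither motif was found in the windows of TP53I3, ZMAT3 and PERP, which says only that these letters are not there. PHLDA3 and TP53INP1 were not analysed here for sequence.

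Depth over the gene rows was 36717795 to 63896604 reads for libraries of experiment 1, and 18787172 to 47407746 for those of experiment 2. Structural RNA rows had a share of 20.2% to 33.5% in the first and of 1.68% to 5.33% in the second. The Nutlin plus water library of replicate 2 in experiment 1 stood apart from the other libraries of that experiment: it had the 33.5%, and a scaling factor of 0.698 against 0.786 to 0.923 in the rest. Epithelial markers were present (EPCAM at a mean of 256 RPM and KRT8 at 1383 RPM, where RPM is reads per 1000000 reads), with 7 of 8 markers at a mean of 0.5 RPM or more. Leukocyte markers reached that mean for 2 of 6 (CD68 at 13.2 and CD14 at 1.96 RPM) and stromal markers for 1 of 6 (VWF at 0.912 RPM). The others did not, and among them PTPRC and COL1A2 were near 0 at 0.0272 and 0.00105 RPM. In such bulk RNA, fewer expressing cells and less RNA per cell cannot be told apart. Levels below are scaled RPM, that is, RPM after correction for library composition, and changes are log2 differences of scaled RPM plus 0.5, with the tested condition on top.

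Each member was read from the same row in both experiments, a whole gene span on hg38 with introns included. PHLDA3 lies on chromosome 1 from 201465479 to 201469171 (minus strand, RefSeq row NR_073080), TP53INP1 on chromosome 8 from 94925972 to 94940941 (minus, NM_033285) and AEN on chromosome 15 from 88621296 to 88630294 (plus, NM_022767). TP53I3 lies on chromosome 2 from 24077433 to 24084326 (minus, NM_001206802), ZMAT3 on chromosome 3 from 179017225 to 179067752 (minus, NM_152240), TRIAP1 on chromosome 12 from 120443961 to 120446372 (minus, NM_016399) and PERP on chromosome 6 from 138088505 to 138107340 (minus, NM_022121). The lowest read count of a member in any library was 195, for TP53I3, and for PERP it was 1901. In GENCODE, 3 members lie whole within a gene on the opposite strand: TP53I3 within FAM228B, TP53INP1 within NDUFAF6 and TRIAP1 within AL021546.1. Since the strand setting of the counting is not given in the sources used here, reads of these overlapping genes may not be separated, so the values of all 3 members are uncertain in this respect. Of the 3 pairs, only TP53I3 and FAM228B also overlap as rows of the deposited tables. FAM228B had fewer reads than TP53I3 in 16 of 20 libraries and differed by 0.12 (log2) with Nutlin plus water over DMSO plus water, where TP53I3 differed by 0.43.

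In untreated cells (DMSO plus water), levels per kilobase of gene span put TRIAP1 and AEN on top in experiment 1, with 7.44 ± 0.16 and 5.97 ± 0.44 RPM per kb (SD, n = 2). PHLDA3 followed with 3.73 ± 0.42 and PERP with 3.06 ± 0.12 RPM per kb. TP53I3 had 0.897 ± 0.083, ZMAT3 0.679 ± 0.041 and TP53INP1 0.621 ± 0.030 RPM per kb, and of the neighbours in this order only ZMAT3 and TP53INP1 were closer than the sum of their SDs. In experiment 2 TRIAP1 had 25.3 ± 2.5 and PERP 18.6 ± 7.2 RPM per kb (SD, n = 3), which lie within their spread, and so do PHLDA3 at 7.44 ± 1.86 and AEN at 5.46 ± 2.09. TP53I3 at 1.99 ± 0.54 and TP53INP1 at 1.34 ± 0.29 RPM per kb were also within their spread there, and ZMAT3 was at 0.732 ± 0.255. As a ratio of scaled RPM, experiment 1 over experiment 2, untreated levels were furthest apart for PERP at 0.165 and TRIAP1 at 0.294. TP53I3, TP53INP1 and PHLDA3 had ratios of 0.451, 0.465 and 0.501, while ZMAT3 (0.928) and AEN (1.09) were nearer the median over all genes tested, 0.914 (quartiles 0.527 and 1.75). The tables of the experiments were made separately, so differences of the cells and of the libraries cannot be told apart in these ratios, and every comparison below was made within experiments and then combined.

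**Figure D1:**
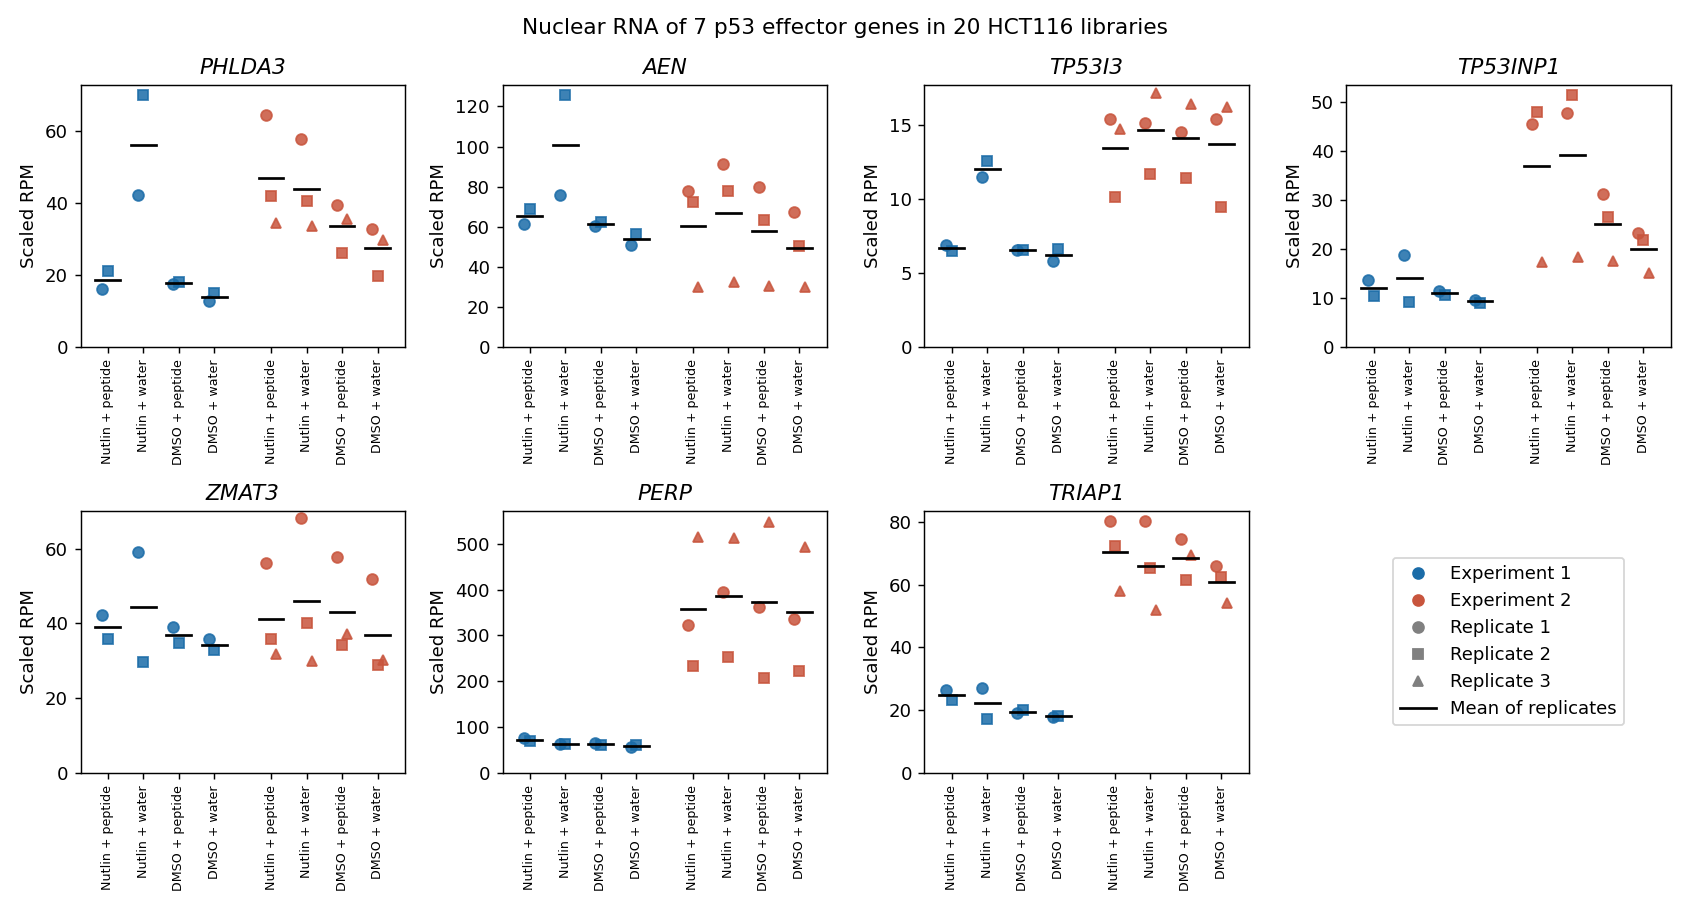
Scaled RPM (linear axis from 0) of the 7 genes in all 20 libraries, with experiment 1 in blue and experiment 2 in red, replicates as circles, squares and triangles and a bar at the mean of each group. PHLDA3 under Nutlin plus water in experiment 1 sits at 42.1 and 70.0, above the other 6 libraries of that experiment, and PERP and TRIAP1 are higher throughout experiment 2.

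The first comparison asked how the 7 genes respond to Nutlin-3a alone (Nutlin plus water against DMSO plus water). PHLDA3, the AKT repressor, had the largest difference among the 7, a 2.26-fold higher level, followed by TP53INP1 at 1.62-fold, AEN at 1.49-fold and TP53I3 at 1.35-fold. ZMAT3, TRIAP1 and PERP were 1.22-, 1.12- and 1.10-fold higher. None of the 7 passed limma's test adjusted over all 15958 genes, in which no gene was called (smallest adjusted p of a member 0.9998). The fit behind that test had terms for condition and experiment and none for the replicate number. Differences between replicate numbers, which same-numbered libraries share, are therefore also held in its SEs, intervals and p-values. This is so too for the permutation p-values and for the fits by experiment, unless a block is named.

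PHLDA3 had 42.1 and 70.0 scaled RPM with Nutlin plus water in experiment 1, against 12.7 and 14.9 with DMSO plus water. In experiment 2 it had 57.8, 40.5 and 33.7 with Nutlin plus water, against 32.9, 19.8 and 29.8 with DMSO plus water. The groups did not overlap in either experiment, which 0.157% of all genes tested showed in this direction. The difference was 1.18 ± 0.28 (log2 ± SE), with an exact two-sided permutation p of 0.0167 within experiments, the smallest that the 120 arrangements can give. It was 1.95 ± 0.35 in experiment 1 and 0.67 ± 0.29 in experiment 2, and within experiment 2 replicate 3 showed 0.18 where replicates 1 and 2 showed 0.80 and 1.02. Without the library that stood apart, the difference over both experiments was 0.91.

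TP53INP1 had 18.8 and 9.22 scaled RPM with Nutlin plus water in experiment 1, against 9.61 and 8.99 with DMSO plus water. In experiment 2 the levels were 47.8, 51.4 and 18.4 with Nutlin plus water, against 23.2, 21.8 and 15.0 with DMSO plus water. Replicate 1 of experiment 1 and replicates 1 and 2 of experiment 2 carried nearly all of the difference, while replicate 2 of experiment 1 differed by 0.04 (log2). The difference was 0.70 ± 0.30 and the exact permutation p 0.133. It was 0.86 without the library that stood apart, which is this replicate 2.

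AEN, the nuclease, had 75.9 and 126 scaled RPM with Nutlin plus water in experiment 1, against 50.9 and 56.5 with DMSO plus water. In experiment 2 it had 91.1, 77.6 and 32.4 with Nutlin plus water, against 67.2, 50.4 and 29.7 with DMSO plus water, so the groups overlapped there. Replicate numbers differed more than conditions in experiment 2, with replicate 3 lowest in both groups. The difference was 0.58 ± 0.33, with an exact permutation p of 0.167, and 0.42 without the library that stood apart.

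TP53I3, the oxidoreductase, had 11.4 and 12.5 scaled RPM with Nutlin plus water in experiment 1, against 5.78 and 6.59 with DMSO plus water. In experiment 2 the values were 15.1, 11.7 and 17.1 with Nutlin plus water, against 15.4, 9.47 and 16.2 with DMSO plus water, and the groups overlapped. Its difference was thus 0.90 ± 0.29 in experiment 1 and 0.11 ± 0.24 in experiment 2 (log2 ± SE). The difference between the experiments, 0.79 ± 0.37, did not pass the test adjusted over all genes, with limma's adjusted p at 0.9997.

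Differences of the remaining members were small. ZMAT3 differed by 0.28 ± 0.24, TRIAP1 by 0.16 ± 0.15 and PERP by 0.13 ± 0.26. ZMAT3 had 59.1 and 29.7 scaled RPM with Nutlin plus water in experiment 1, against 35.8 and 32.8 with DMSO plus water, so the 2 replicates went in opposite directions. In experiment 2 ZMAT3 had 68.3, 40.2 and 29.9 with Nutlin plus water, against 51.9, 28.9 and 30.2 with DMSO plus water, and replicate 3 again showed nothing of the difference in the other replicates. TRIAP1 also went in opposite directions in experiment 1, with 27.1 and 17.1 with Nutlin plus water, against 17.7 and 18.2 with DMSO plus water. In experiment 2 TRIAP1 had 80.5, 65.3 and 52.0 with Nutlin plus water, against 66.1, 62.6 and 54.3 with DMSO plus water. PERP was higher in all 5 same-numbered pairs, by 0.05 to 0.23 (log2), and its levels of 61.8 and 61.6 with Nutlin plus water in experiment 1 lay just above 56.1 and 59.3 with DMSO plus water. In experiment 2 PERP had 395, 253 and 512 with Nutlin plus water, against 337, 223 and 492 with DMSO plus water, so the replicate numbers were much further apart than the conditions. These values moved with single libraries: without the one that stood apart, ZMAT3 differed by 0.41, TRIAP1 by 0.24 and PERP by 0.16. With each library left out in turn, ZMAT3 ran from 0.13 (without Nutlin plus water replicate 1 of experiment 2) to 0.44 (without replicate 3 there). TRIAP1 ran from 0.057 (without Nutlin plus water replicate 1 of experiment 1) to 0.26 (without Nutlin plus water replicate 3 of experiment 2), and PERP from 0.0031 (without DMSO plus water replicate 2 of experiment 2) to 0.30 (without replicate 3 there). Leaving out 1 library kept its same-numbered partner in, so these ranges also hold differences between replicate numbers.

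Counted by pairs, PHLDA3, TP53INP1, AEN and PERP were higher with Nutlin plus water in 5 of 5 same-numbered pairs, or 4 of 7 members, where 2.87% of all genes tested were. The median log2 difference of the 7 was 0.43, against -0.03 over all genes tested, and all 7 were above 0, as were 41.6% of all genes. At an unadjusted p under 0.05, limma held 3 members higher (PHLDA3, TP53INP1 and TP53I3) and 0 lower, while 67 genes (0.42%) were higher and 33 lower overall. Leaving out the library that stood apart left 2 members at that p, and TP53I3 was not among them, with 0.32 (log2) and an unadjusted p of 0.121. With the replicate number as a block 5 members were higher at that p (adding AEN and ZMAT3), where 3.12% of genes were, and the smallest adjusted p of a member was 0.0719, for both PHLDA3 and AEN. Leaving out the library that stood apart in that blocked fit gave TP53INP1 0.83 and AEN 0.43 (log2), each with limma's adjusted p at 0.0372, and PHLDA3 0.91 with 0.0652. By this setting 5 genes of all those tested were called. The library left out was picked by its own values, and no other library was left out of the blocked fit.

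The second comparison asked what the peptide did to Nutlin-treated cells (Nutlin plus peptide against Nutlin plus water). It shares the Nutlin plus water libraries with the first comparison, so a high value in those libraries makes one difference larger and the other more negative. No member passed the test over all genes, in which 0 genes were called, with 33 genes higher and 44 (0.276%) lower at an unadjusted p under 0.05. The largest negative differences belonged to PHLDA3, TP53I3 and AEN, at 0.676, 0.760 and 0.801 times the level with water. TP53INP1, ZMAT3, PERP and TRIAP1 were within 0.924 to 1.10 times.

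PHLDA3 had 16.2 and 21.2 scaled RPM with Nutlin plus peptide in experiment 1, against 42.1 and 70.0 with Nutlin plus water. In experiment 2 it had 64.5, 41.8 and 34.4 with Nutlin plus peptide, against 57.8, 40.5 and 33.7 with Nutlin plus water. The groups were apart in experiment 1, whereas in experiment 2 each replicate was slightly higher with peptide. Its difference was -1.53 ± 0.35 in experiment 1 and 0.08 ± 0.29 in experiment 2 (log2 ± SE), where the 95% interval ran from -0.53 to 0.69. Over both experiments the difference was -0.57 ± 0.28, and -0.30 without the library that stood apart.
The difference between the experiments was -1.60 ± 0.45. It did not pass limma's test over all genes, with an adjusted p of 0.9999, and it passed with the replicate number as a block, with an adjusted p of 0.0199, where 54 genes (0.338%) did. At an unadjusted p under 0.05 this contrast held 23.1% of all genes with the block and 1.03% without it. The library that stood apart is part of the experiment 1 side, and the contrast was not fitted without it.

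TP53I3 showed a like split. It had 6.86 and 6.49 scaled RPM with Nutlin plus peptide in experiment 1, against 11.4 and 12.5 with Nutlin plus water, without overlap. Experiment 2 gave 15.4, 10.1 and 14.7 with Nutlin plus peptide, against 15.1, 11.7 and 17.1 with Nutlin plus water. The log2 difference was -0.80 ± 0.29 in experiment 1 and -0.13 ± 0.24 in experiment 2.

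AEN was the 1 member of 7 that was lower with peptide in 5 of 5 same-numbered pairs, where 2.53% of all genes were. It had 61.3 and 68.9 scaled RPM with Nutlin plus peptide in experiment 1, against 75.9 and 126 with Nutlin plus water. Experiment 2 gave 77.7, 72.5 and 30.1 with Nutlin plus peptide, against 91.1, 77.6 and 32.4 with Nutlin plus water. The pair differences ran from -0.87 to -0.10 (log2), and the mean difference was -0.32 ± 0.33 with an exact permutation p of 0.367.

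TP53INP1 had 13.7 and 10.5 scaled RPM with Nutlin plus peptide in experiment 1, against 18.8 and 9.22 with Nutlin plus water, and in experiment 2 45.4, 48.0 and 17.4 against 47.8, 51.4 and 18.4. It was lower in 4 of 5 pairs, by a mean difference of -0.10 ± 0.30. The 95% interval of the fit without the block, -0.74 to 0.53, holds sizeable changes either way. The pair differences themselves ran from -0.44 to 0.17 (log2). TRIAP1, the survival gene, was higher with peptide in 4 of 5 pairs, by 0.14 ± 0.15. PERP differed by 0.01 ± 0.26 and ZMAT3 by -0.11 ± 0.24. In all, 5 of 7 members had a negative difference, as did 39.1% of all genes tested, and the members' median was -0.11 against 0.04 over all genes. Without the library that stood apart the median was -0.24, with 6 of 7 below 0, and TP53INP1, ZMAT3, TP53I3 and AEN had -0.27, -0.24, -0.29 and -0.16. With the replicate number as a block, PHLDA3, AEN and TP53I3 were lower at an unadjusted p under 0.05, where 3.5% of genes were, and their adjusted p was 0.602.

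**Figure D2:**
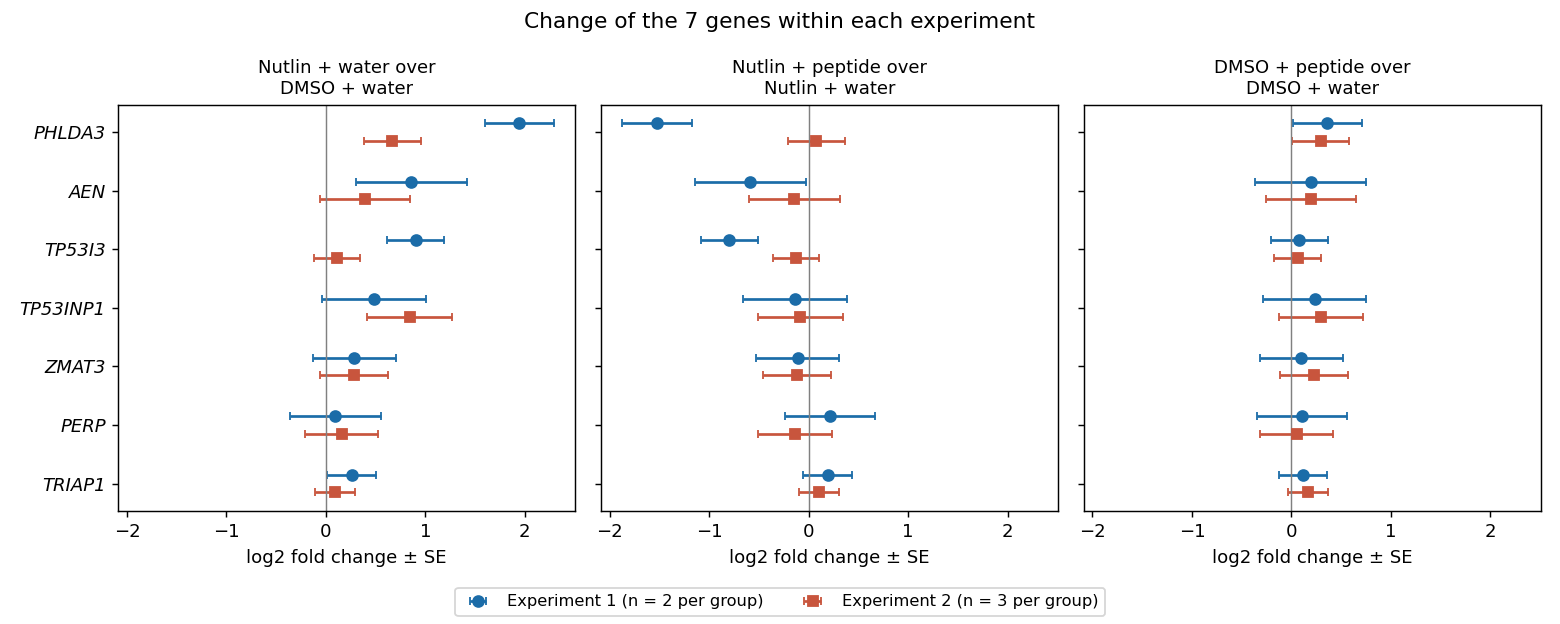
Log2 fold change with its standard error (horizontal axis) of the 7 genes in experiment 1 (blue circles, n = 2 per group) and experiment 2 (red squares, n = 3 per group), for Nutlin plus water over DMSO plus water (left), Nutlin plus peptide over Nutlin plus water (middle) and DMSO plus peptide over DMSO plus water (right). PHLDA3 has 1.95 and 0.67 at the left and -1.53 and 0.08 in the middle, while TP53INP1 has its larger difference at the left in experiment 2 (0.84).

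Without Nutlin-3a, all 7 members were slightly higher with the peptide (DMSO plus peptide against DMSO plus water). The DMSO plus water libraries are shared with the first comparison, so a low value in those libraries raises both differences. PHLDA3 was 1.25-fold, TP53INP1 1.21-fold, AEN 1.15-fold and ZMAT3 1.13-fold higher, and each of these was higher in 5 of 5 same-numbered pairs, where 5.86% of all genes were. A difference above 0 was common here, with 60.0% of all genes against 7 of 7 members. The members' median was 0.18 and that of all genes 0.02. No gene was called by limma, 9 genes (0.0564%) were higher and 7 lower at an unadjusted p under 0.05, and no member was among them.
PHLDA3 had 17.5 and 18.2 scaled RPM with DMSO plus peptide in experiment 1, against 12.7 and 14.9 with DMSO plus water. In experiment 2 it had 39.3, 26.0 and 35.4 with DMSO plus peptide, against 32.9, 19.8 and 29.8 with DMSO plus water. Its 5 pair differences were close together, from 0.25 to 0.45 (log2), with a mean difference of 0.32 ± 0.28 and an exact permutation p of 0.1.
TP53INP1 had 11.4 and 10.6 scaled RPM with DMSO plus peptide in experiment 1, against 9.61 and 8.99 with DMSO plus water, and in experiment 2 31.1, 26.5 and 17.5 against 23.2, 21.8 and 15.0. Its pair differences ran from 0.21 to 0.42, with a mean of 0.27 ± 0.30. In experiment 1 the groups of PHLDA3, TP53INP1, AEN, TRIAP1 and PERP were apart, and in experiment 2 those of every member overlapped. The share of all genes with groups apart in experiment 1 alone was not counted. Groups of 2 libraries are easily apart, so nothing about the members is read from this.

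With the peptide present, differences with Nutlin-3a were small (Nutlin plus peptide against DMSO plus peptide). No member was higher in 5 of 5 same-numbered pairs, where 1.62% of all genes were. TP53INP1 differed by 0.32 ± 0.30 and PHLDA3 by 0.29 ± 0.28 (log2), and the other members lay between -0.04 and 0.15. The members' median was 0.06, against -0.01 over all genes, and 5 of 7 were above 0, as were 43.3% of all genes. In experiment 2 PHLDA3 had 64.5, 41.8 and 34.4 scaled RPM with Nutlin plus peptide, against 39.3, 26.0 and 35.4 with DMSO plus peptide, so replicates 1 and 2 were higher by 0.71 and 0.67 (log2) and replicate 3 was not. TP53INP1 showed the same split, with 45.4, 48.0 and 17.4 against 31.1, 26.5 and 17.5. In experiment 1 PHLDA3 differed by 0.06 ± 0.35 and AEN by 0.08 ± 0.56. No gene was called here, with 19 genes (0.119%) higher and 7 lower at an unadjusted p under 0.05 and no member among them. TP53INP1 was the 1 member under 0.05 in the blocked fit, at 0.0446, where 1.16% of genes were higher at that p.

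Cells with both agents were set against untreated cells (Nutlin plus peptide against DMSO plus water). The same DMSO plus water libraries serve here as with Nutlin alone and peptide alone, so these comparisons are not independent. PHLDA3 and TP53INP1 were 1.53-fold and 1.51-fold higher, TRIAP1 1.23-fold, AEN 1.20-fold and ZMAT3 1.13-fold. These 5 of 7 members were higher in 5 of 5 same-numbered pairs, where 2.9% of all genes were. PHLDA3 had 16.2 and 21.2 scaled RPM with Nutlin plus peptide in experiment 1, against 12.7 and 14.9 with DMSO plus water, and in experiment 2 64.5, 41.8 and 34.4 against 32.9, 19.8 and 29.8. Its groups did not overlap in either experiment, which 0.113% of all genes showed in this direction, and the exact permutation p was 0.0167 for a difference of 0.61 ± 0.28.
TRIAP1 had 26.4 and 23.1 scaled RPM with Nutlin plus peptide in experiment 1, against 17.7 and 18.2 with DMSO plus water. Experiment 2 gave 80.5, 72.6 and 58.0 with Nutlin plus peptide, against 66.1, 62.6 and 54.3 with DMSO plus water. Every pair was higher, by 0.10 to 0.56, with a mean difference of 0.30 ± 0.15 and an exact permutation p of 0.05. TRIAP1 thus stood highest in cells with both agents in experiment 1 apart from 1 library of Nutlin plus water at 27.1. The median of the 7 was 0.26 against 0.01 over all genes, all 7 were above 0 as were 53.4% of genes, and limma called 0 genes, with 22 (0.138%) higher and 11 lower at an unadjusted p under 0.05.

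Whether the Nutlin-3a effect differed with the peptide was tested as the difference of the effects, with peptide minus with water. All 7 members had a value below 0, as did 44.5% of all genes, and their median was -0.38 against 0.02 over all genes. PHLDA3 had -0.89 ± 0.40 (log2 ± SE), AEN -0.52 ± 0.46, TP53I3 -0.47 ± 0.28, TP53INP1 -0.38 ± 0.43 and ZMAT3 -0.29 ± 0.34, while PERP (-0.07 ± 0.37) and TRIAP1 (-0.01 ± 0.21) had means near 0 with replicates on both sides of it. PHLDA3, AEN and TP53INP1 had a smaller Nutlin-3a effect with peptide in 5 of 5 replicate numbers, where 1.83% of all genes did. Peptide over water, these members had -0.57, -0.32 and -0.10 under Nutlin-3a and 0.32, 0.20 and 0.27 without it. In experiment 2 PHLDA3 was not lower with peptide under Nutlin-3a (0.16, 0.04 and 0.03). Its values below 0 there came with higher levels under DMSO plus peptide (0.26, 0.39 and 0.25). PHLDA3 was under an unadjusted p of 0.05 at 0.0378, as 16 genes were in this direction (0.1%) and 10 in the other, and no gene passed the adjusted test (smallest adjusted p of a member 0.9999). PHLDA3 had -0.62 with an unadjusted p of 0.0826 when the library that stood apart was left out, and 0 members were then under 0.05. With the replicate number as a block PHLDA3, AEN and TP53I3 were under 0.05, where 0.927% of genes were lower at that p, with an adjusted p of 0.9996.
By experiment, the difference of effects of PHLDA3 was -1.89 ± 0.50 in experiment 1 and -0.22 ± 0.41 in experiment 2, and that of TP53I3 -0.88 ± 0.41 and -0.19 ± 0.33. TP53INP1 had -0.37 ± 0.74 and -0.38 ± 0.60, and ZMAT3 -0.21 ± 0.59 and -0.35 ± 0.48. In experiment 1 the replicates behind these values were apart, at -0.68 and -0.06 for TP53INP1 and at -0.60 and 0.19 for ZMAT3. Replicate by replicate, PHLDA3 had -1.80 and -1.98 in experiment 1 and -0.10, -0.35 and -0.22 in experiment 2, all below 0 but far apart in size. AEN had -0.55 and -1.01 in experiment 1 and -0.48, -0.42 and -0.12 in experiment 2.

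**Figure D3:**
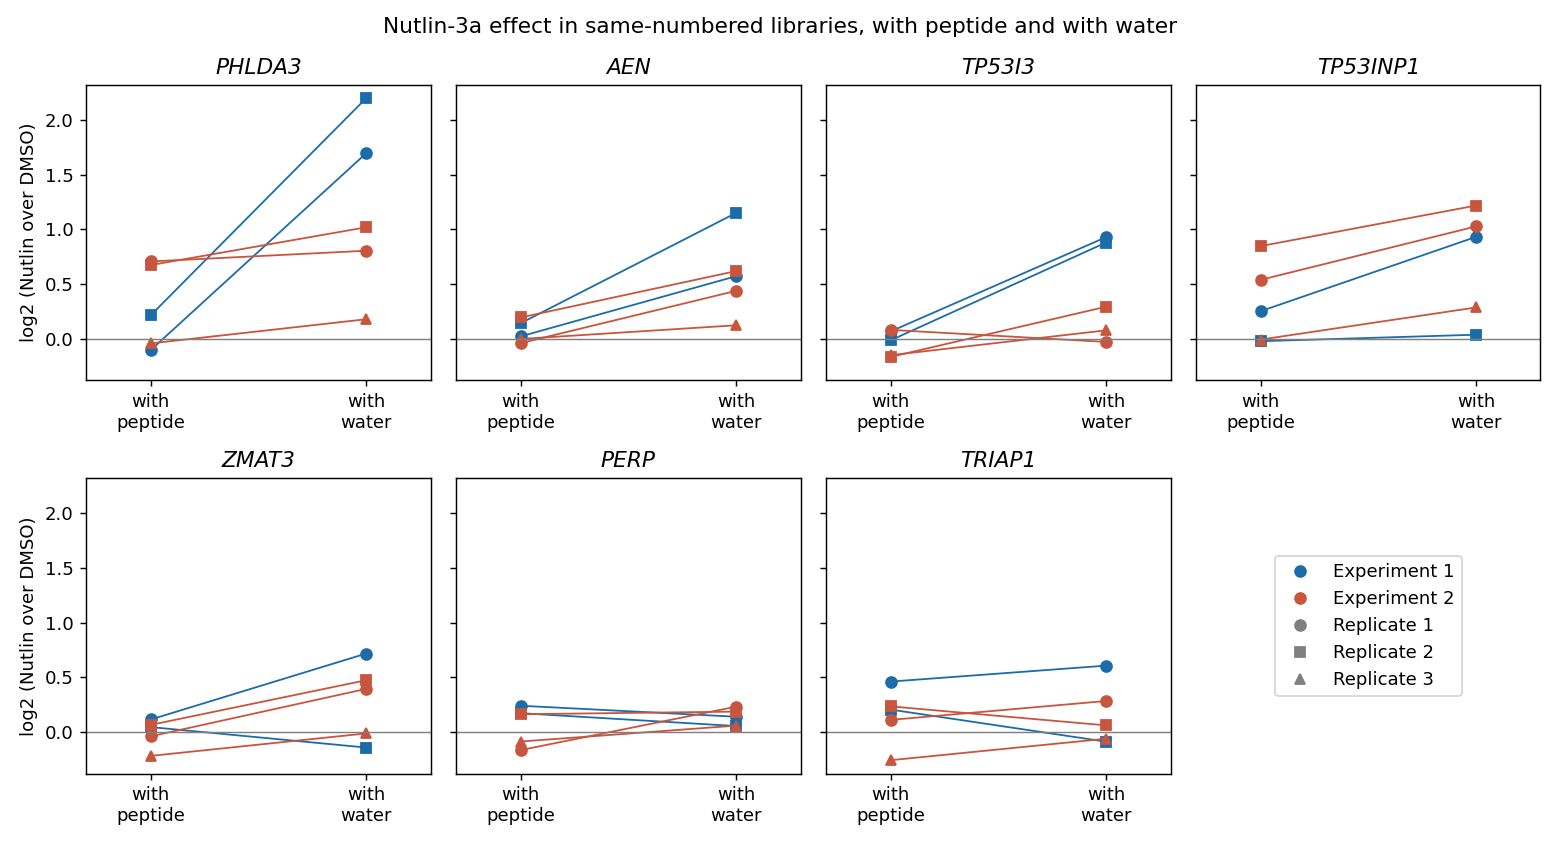
Log2 ratio of Nutlin over DMSO in same-numbered libraries (vertical axis), with peptide at the left and with water at the right of each panel, and 1 line per replicate number, blue for experiment 1 and red for experiment 2. All 5 lines of PHLDA3, AEN and TP53INP1 are higher with water than with peptide, and the flattest of them is a TP53INP1 line with -0.06 (peptide minus water). Those of PERP and TRIAP1 go both ways, from -0.40 to 0.12 and from -0.20 to 0.29.

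How the members varied together turned on 1 library. After subtracting the mean of each experiment and replicate number, PHLDA3, AEN and TP53I3 followed each other across the 20 libraries (Pearson r of log2 scaled RPM 0.933 for PHLDA3 and AEN, 0.860 for PHLDA3 and TP53I3, 0.825 for AEN and TP53I3). TP53INP1, ZMAT3 and TRIAP1 followed each other as well (0.767 for TP53INP1 and ZMAT3, 0.759 for ZMAT3 and TRIAP1, 0.621 for TP53INP1 and TRIAP1), and r between genes of these sets, which were named after their values were seen, was from 0.126 to 0.612. Without the library that stood apart, r between the sets was from 0.474 to 0.898 over 19 libraries, with 0.898 for PHLDA3 and TP53INP1 and 0.854 for PHLDA3 and ZMAT3. These are descriptions over libraries that share 4 conditions. PERP had its highest r with TRIAP1, at 0.569, and 0.583 without that library.
In that library (Nutlin plus water, experiment 1, replicate 2), PHLDA3, AEN and TP53I3 had 70.0, 126 and 12.5 scaled RPM, above the 42.1, 75.9 and 11.4 of replicate 1. For TP53I3 this order depended on the scaling: in unscaled RPM it had 8.75 there, below the 10.3 of replicate 1. PHLDA3 and AEN kept the order unscaled, with 48.8 and 87.9 RPM against 38.0 and 68.5. TP53INP1, ZMAT3 and TRIAP1 had 9.22, 29.7 and 17.1 there, near the 8.99, 32.8 and 18.2 of the same-numbered DMSO plus water library. The library's share of structural RNA moved with this split, and its part in it was not tested.

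**Figure D4:**
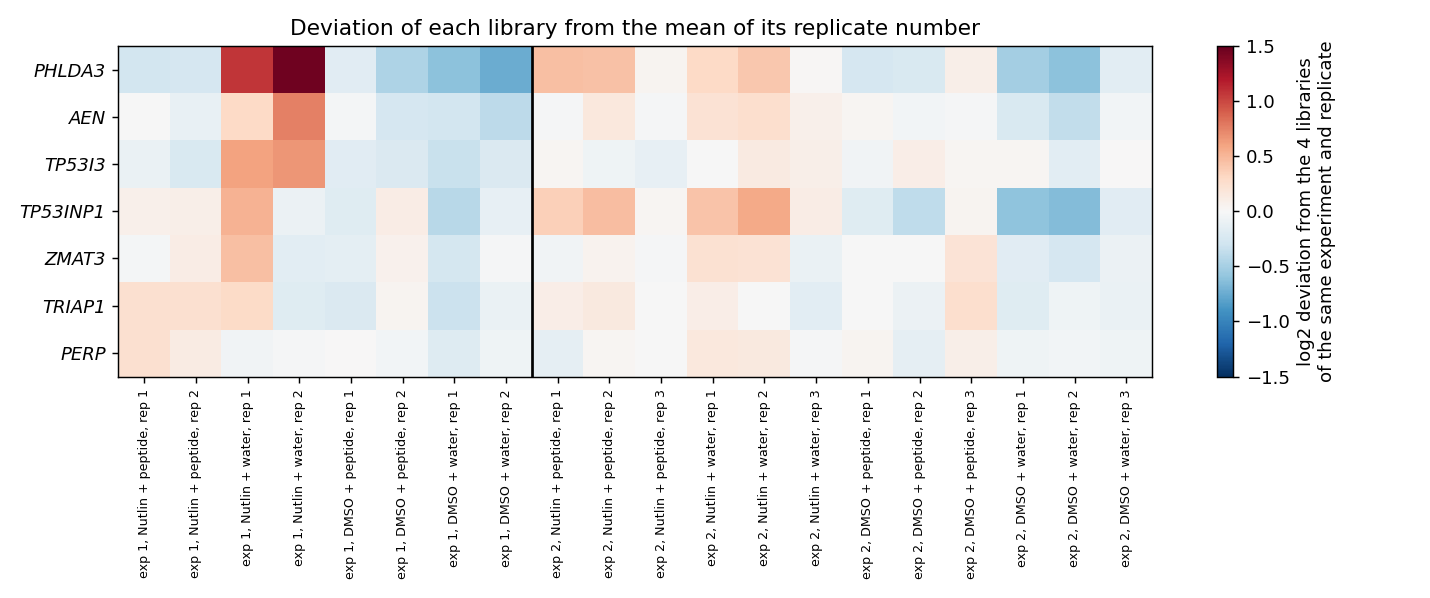
Heat map of the log2 deviation of each library (columns, experiment 1 left of the line) from the mean of the 4 libraries with the same experiment and replicate number, for the 7 genes (rows); red is higher and blue lower. In the Nutlin plus water library of replicate 2 in experiment 1, the upper 3 genes are red and the next 3 pale blue, and replicate 3 of experiment 2 is pale throughout.

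The genes most like each member were taken by Pearson r of log2 RPM, without library scaling, after the same subtraction over the 20 libraries. PHLDA3 was closest to CDKN1A (0.969), the inhibitor of cyclin-dependent kinases, and to BTG2 (0.968), an antiproliferative gene. AEN was closest to BTG2 (0.940) and SESN2 (0.925), a stress-induced sestrin, and TP53INP1 to ANKRA2 (0.929) and SESN1 (0.918), another sestrin. TP53I3 was closest to SULF2 (0.927) and TSKU (0.907), ZMAT3 to E2F7 (0.922) and CEP85L (0.906), and TRIAP1 to RPS27L (0.949) and BLOC1S2 (0.923). PERP was closest to TXNDC5 (0.926) and to the BLOC1S5-TXNDC5 readthrough (0.927), whose rows overlap. Without the library that stood apart these 14 values of r were from 0.878 to 0.972.

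Other lists set the members in context. Of 24 p53 apoptosis genes of the BCL2, death receptor and other families, 23 were tested. With Nutlin plus water against DMSO plus water, 18 of the 23 were above 0, as were 41.6% of all genes, with a median of 0.24. At an unadjusted p under 0.05 by limma 8 were higher, where 0.42% of all genes were, and 0 lower, with 0 called. Without the library that stood apart, the list's median was 0.08 and 16 of 23 were above 0. The 4 with the smallest p were the death receptors TNFRSF10B (0.61 ± 0.13) and FAS (0.82 ± 0.23), the lysosomal protein DRAM1 (0.63 ± 0.16) and the BH3-only gene BBC3 (0.91 ± 0.27). With Nutlin plus peptide against Nutlin plus water the list's median was -0.15, with 15 of 23 below 0, and these 4 had -0.41, -0.50, -0.43 and -0.61. The genes named from each list here were picked in the first comparison, which shares the Nutlin plus water libraries. For genes higher there, that choice favours a negative value with peptide under Nutlin-3a. The same 4 values were -0.35, -0.55, -0.42 and -0.32 when the library that stood apart was left out, and BBC3, with an unadjusted p of 0.146, was then the 1 of the 4 not under 0.05. In that comparison 5 of the 23 were lower at an unadjusted p under 0.05 by limma, where 0.276% of all genes were. With the replicate number as a block 11 were, where 3.5% of all genes were. Like PHLDA3, BBC3 was lower with peptide in experiment 1 (-1.56) and not in experiment 2 (0.02), the first value resting in part on that library, while TNFRSF10B, FAS and DRAM1 were lower in 5 of 5 pairs.
For the 9 relatives of the members by sequence, such as ZMAT2, ISG20L2, CRYZ and ISG20, the median was -0.03 with Nutlin alone and 0.09 with peptide under Nutlin-3a, and none was under an unadjusted p of 0.05 in either. ISG20, an exonuclease related to AEN, had 0.31 ± 0.58 with Nutlin alone, and ZMAT2 had -0.18 ± 0.14. With the replicate number as a block ISG20 was under 0.05, at 0.31 ± 0.10 with an unadjusted p of 0.0074 and limma's adjusted p at 0.582, and it was higher in 5 of 5 pairs. Of 10 partners of the members, such as AKT1, HIPK2, PRELID1 and MDM2, 9 were tested, with medians of -0.05 and 0.08. MDM2 had 0.95 ± 0.54 with Nutlin alone and -0.46 ± 0.54 with peptide under Nutlin-3a, HIPK2 -0.11 ± 0.32 and 0.16 ± 0.32, MAP1LC3B (an autophagy protein) -0.07 ± 0.19 and 0.10 ± 0.19, and HSPA8 (a chaperone) -0.06 ± 0.18 and 0.21 ± 0.18. In the blocked fit MDM2 had 0.95 ± 0.18 with Nutlin alone, higher in 5 of 5 pairs, with limma's adjusted p at 0.0719. With peptide under Nutlin-3a the blocked fit put MDM2 lower (-0.46 ± 0.18, lower in 5 of 5 pairs) and HSPA8 higher at an unadjusted p under 0.05, with an adjusted p of 0.602 for both.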

How the data were processed

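The deposited signal, per the values, is reads per 1000000 (RPM) that the authors divided by a number set by the row's position, its stop coordinate less a small fraction of its start coordinate. Multiplying it back gave columns that sum to 1000000 and whole reads in 100% of values (tolerance 0.001). Per the submitters' processing notes, HISAT2, bedtools, limma and hg38 were used; versions, roles and strand setting are not given in the sources used here. Because the unit was not the raw counts assumed at first, limma 3.58.1 (R 4.3.3) was fitted with a trend to log2(RPM scaled by trimmed mean of M values + 0.5), keeping genes whose mean reached 0.5 RPM, with terms for condition and experiment and Benjamini-Hochberg adjustment; a call is an adjusted p under 0.05. The log2 pseudocount understates changes of low genes. The fit by experiment used 8 group means. Same-numbered libraries were taken as pairs from the values: their deviations correlated at 0.289 to 0.604 in experiment 1, where 2 replicates mirror each other, and at 0.876 to 0.939 in experiment 2. The fits were tested on simulated data. Alternatives were other scaling, filters and pseudocounts, limma-voom, the block, each experiment alone and each library left out. The block on 8 group means, and correlations and lists without 1 library, were added after seeing the data. The 1 library left out of the blocked fit was picked by its values. Levels per kilobase use the row's span. Promoter windows came from RefSeq (GRCh38.p14). All 7 members are named; from each other list up to 4 genes with the smallest p under Nutlin-3a alone; and the 2 most alike genes per member. Members and lists were chosen with earlier results of these data known. Plots used Python 3.11.15 and matplotlib 3.10.9.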

Additional observations from a re-analysis of the deposited data

Results flagged for a closer look

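The effect of the peptide on PHLDA3 under Nutlin-3a differed between the experiments by -1.60 ± 0.45 (log2 ± SE, experiment 1 minus experiment 2). In experiment 1 both same-numbered pairs were lower with peptide, at -1.35 and -1.70, and in experiment 2 all 3 pairs were slightly higher, at 0.16, 0.04 and 0.03. The result was marked because every pair of one experiment lay on the opposite side of 0 from every pair of the other. The share of all genes with such a split was not counted, so how unusual it is was not tested. Limma's adjusted p for the difference was 0.9999 with 8 group means and 0.0199 with the replicate number as a block. With that block 23.1% of all genes had an unadjusted p under 0.05 in this contrast. The pair at -1.70 holds the library that stood apart, and the contrast was not fitted without it.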

How the results depend on the processing

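In the 6 comparisons the replicate block with the trend fit changed no call of a member, and 0 genes were called with it. The block with limma-voom called 9 genes with Nutlin alone, 3 with peptide under Nutlin-3a, 7 with Nutlin-3a under peptide and 4 for the difference of the effects, none of them a member, and the block without the library that stood apart called 5 with Nutlin alone. Experiment 1 alone called 1 gene in each of the peptide comparisons and in Nutlin-3a with peptide, and no filter called 1 in Nutlin-3a with peptide and 1 in both agents against untreated. The members' median for peptide without Nutlin-3a was 0.086 in experiment 1 alone. The sign turned in experiment 2 alone for PHLDA3 (0.081) and PERP (-0.131) with peptide under Nutlin-3a, for PERP with Nutlin-3a under peptide (-0.024) and for TP53I3 with both agents (-0.0061). In experiment 1 alone it turned for TP53I3 (0.032) and ZMAT3 (0.085) with Nutlin-3a under peptide and for TRIAP1 (0.033) and PERP (0.068) in the difference of effects. Scaling turned ZMAT3 with Nutlin-3a under peptide (0.0018 by median of ratios, 0.0027 without structural RNA rows) and TRIAP1 in the difference of effects (0.0015 without scaling), and PERP with peptide under Nutlin-3a was -0.015 in the block without the library that stood apart. These causes were not tested.

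With each library left out in turn, the members' median ran from -0.333 (without Nutlin plus water replicate 3 of experiment 2) to 0.017 (without replicate 1 there) with peptide under Nutlin-3a, and from 0.057 (without DMSO plus peptide replicate 1 of experiment 2) to 0.312 (without DMSO plus water replicate 1 there) with peptide alone. It ran from 0.049 to 0.238 with Nutlin-3a under peptide and from 0.180 to 0.392 with both agents, highest in both without Nutlin plus peptide replicate 3 of experiment 2. Members whose sign turned were TP53INP1 (-0.333 to 0.115), ZMAT3 (-0.257 to 0.047) and PERP (-0.133 to 0.167) with peptide under Nutlin-3a, and TP53I3 (-0.022 to 0.175) and PERP (-0.094 to 0.272) with peptide alone. With Nutlin-3a under peptide they were AEN (-0.132 to 0.282), TP53I3 (-0.104 to 0.050), ZMAT3 (-0.130 to 0.123) and PERP (-0.122 to 0.243). TP53I3 with both agents ran from -0.055 to 0.142, and TRIAP1 (-0.107 to 0.092) and PERP (-0.268 to 0.098) did so in the difference of effects. These fits had no term for the replicate number and kept the same-numbered partners of the library left out. The ranges therefore also hold differences between replicate numbers. At 195 reads TP53I3 has the largest counting error, 7.16%.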
